A study of Mus musculus with 23 samples.

Results

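The comparison described here sets the CT2A glioma line against the GL261 line in tumor cells that had been grown as neurospheres, implanted into the mouse brain and recovered from the tumors by sorting. It holds 8 of the 23 samples of the series, 5 libraries of CT2A and 3 of GL261, chosen by the cell line label and by the words of the labels for neurosphere culture and sorting. CT2A and GL261 are mouse gliomas, both originally induced with the carcinogen methylcholanthrene in C57BL/6 mice and propagated since as lines. CT2A carried a luciferase gene and GL261 the luc2 luciferase, and both carried a surface tag that allowed the tumor cells to be pulled out of the dissociated tumors with magnetic beads. By the study's methods 200000 cells were injected into the right striatum of female albino C57BL/6 mice of 7 to 10 weeks, hosts with an intact immune system, and no agent was given to either group. Each group is 1 line, so a difference between the groups is a difference between 2 individual lines. The labels number the samples without naming animals, so the p-values measure the spread between these samples. The time of harvest of the sorted tumors, and whether the libraries of both lines were prepared together, are not given in the sources used here, so that line and preparation cannot be told apart.

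The titles of the 5 CT2A libraries (57 to 61) name GL261, whereas their descriptions and their cell line label name CT2A, and the labels were therefore set against the data. A set of 6 genes had at least 10 CPM (counts relative to the library total) in every adherent-derived CT2A library and under 0.1 CPM in every adherent-derived GL261 library, and 20 genes showed the opposite pattern. Libraries 57 to 61 summed to between 152 and 303 CPM over the CT2A genes and to at most 0.60 CPM over the GL261 genes. The 3 GL261 libraries (89 to 91) summed to at most 0.82 and to between 454 and 516 CPM. All 8 libraries went with the line of their cell line label.

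Each library held between 7395846 and 15263587 estimated reads in CT2A (median 13751964) and between 8214033 and 8834438 in GL261 (median 8824984). The first principal component held 83.9% of the variance over all tested genes and separated the lines, and the second held 7.40% and set CT2A library 59 apart from the other 7 libraries. A CT2A library differed from its group mean by a median SD of 0.264 on the log2 CPM scale, and a GL261 library by 0.174.

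Gliomas take their expression programs from the cells of the developing brain. Oligodendrocyte progenitors are set by the transcription factors OLIG2 and SOX10, whereas cells called mesenchymal express TWIST and SNAI factors, collagens and other matrix proteins. Tumor cells show peptides to T cells on MHC class I. The peptides are cut by the immunoproteasome, pumped into the endoplasmic reticulum by TAP1 and TAP2 and loaded with the help of tapasin, and interferons raise the whole set through STAT and IRF factors.

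Magnetic selection left RNA of host cells in the libraries, and its amount differed between the lines. Marker genes of macrophages, 13 in number, summed to 9470.3, 6706 and 6328 CPM in GL261 libraries 89, 90 and 91, and to 1092, 694, 3761, 1563 and 1007 CPM in CT2A libraries 57 to 61. Every GL261 library stood above every CT2A library, and CT2A library 59 stood highest within its line. The mean log2(CPM + 1) of these markers was 2.58 lower in CT2A (exact permutation test, two-sided, p = 0.0179, the smallest that 5 against 3 libraries can give, and 0.025 adjusted over 14 cell types). The same p was reached, with the lower score in CT2A, for markers of monocytes, T cells, NK cells, B cells, endothelial cells, pericytes, oligodendrocytes, astrocytes and erythroid cells. Without CT2A library 57, 58, 60 or 61 the exact permutation p was 0.0571 for macrophages and monocytes, as it was for oligodendrocytes without library 57, 58, 59 or 61 and for astrocytes without library 61. For macrophages and monocytes without library 59 it was 0.0286, the smallest that 4 against 3 libraries can give. The summed CPM of the lines did not overlap for macrophages, monocytes, oligodendrocytes or astrocytes. For pericytes the score was lower in CT2A, whereas the summed CPM of the lines overlapped. Scores of microglia, neutrophils, neurons and dendritic cells did not pass (exact permutation p between 0.0536 and 0.196, adjusted p between 0.0682 and 0.196).

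The levels of these lists were unequal. T cell, NK cell and B cell markers summed to at most 37.1 CPM in any library, and the T cell genes Cd3d, Cd3e and Cd3g lay under the minimum count. Oligodendrocyte markers summed to between 504 and 571 CPM in GL261, to 296 CPM in CT2A library 60 and to between 28.3 and 50.2 CPM in the other 4 CT2A libraries. In sorted cells a smaller number of cells of a type and less RNA per cell cannot be told apart, and astrocyte and oligodendrocyte genes can also be expressed by glioma cells. In adherent-derived tumors the macrophage markers summed to between 1032 and 2107 CPM in CT2A and to between 257 and 1583 CPM in GL261, and 0 of the 13 passed the threshold between the lines with edgeR's quasi-likelihood test (0 at an unadjusted p under 0.05). A marker that did not pass is not shown to be equal. Other lists did differ there, with 7 of 10 endothelial, 6 of 9 oligodendrocyte and 2 of 2 NK cell markers lower in CT2A and none higher. Of 8 pericyte markers 3 were lower and 1 higher, and of 8 microglia markers 2 were higher. Over all genes 26.8% were lower and 24.0% higher. Values of those 7 libraries are given beside several of the results.

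**Figure D1:**
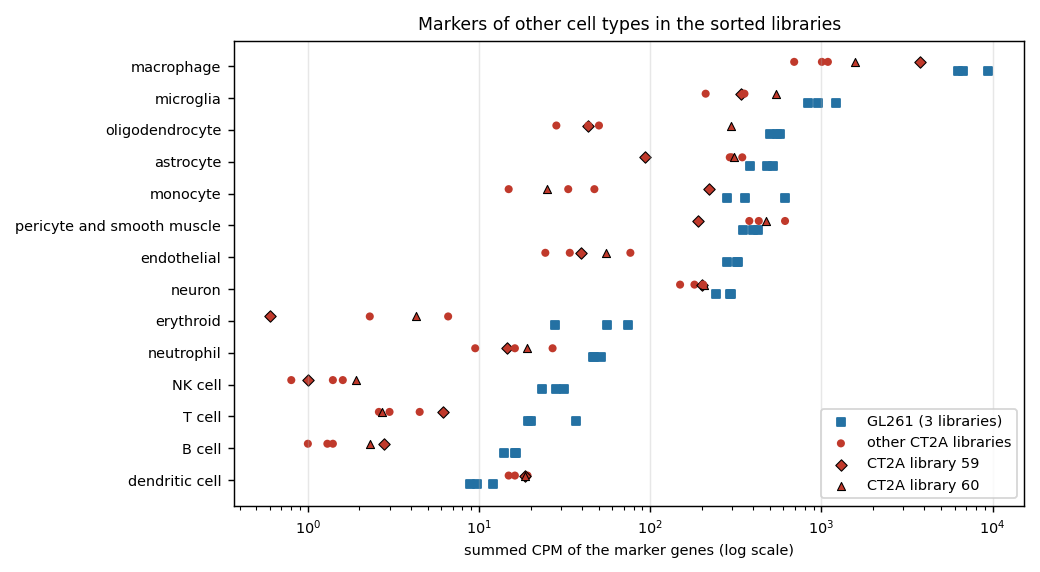
Summed CPM of the marker genes of 14 other cell types in each sorted library (log axis, 1 row per cell type; squares are GL261, red symbols CT2A, with libraries 59 and 60 marked). Macrophage markers lay between 6328 and 9470.3 CPM in GL261 and between 694 and 3761 CPM in CT2A, and library 59 was the highest of the CT2A libraries.

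Expression differed between the lines in most genes. The quasi-likelihood test of edgeR was run on 13733 genes, and 8182 of these passed an adjusted p of 0.05 (59.6%), 4118 higher in CT2A (30.0%) and 4064 lower (29.6%). The normalized counts (counts scaled to a common library size) of the lines did not overlap in 8023 genes (58.4%). A change of over 1 on the log2 scale was reached by 4963 genes (36.1%), 2134 higher and 2829 lower. With this many genes past the threshold, a count of list members below is read against 30.0% and 29.6%. Without libraries 59 and 60 the count was 9122. Over the 23 gene lists described below 163 members were higher and 202 lower, and without those 2 libraries 179 and 217. Medians of the lists were the same with the members that had no read in 1 line set to their bound.

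The genes furthest apart were at or near 0 in 1 of the lines. Gpr149, an orphan G protein-coupled receptor gene on chromosome 3 (62529077 to 62605140 in GRCm38), had normalized counts of 1616, 1370.4, 786, 1333 and 1467 in CT2A libraries 57 to 61 and no read in GL261. Against a floor of 3 counts per library it was at least 355-fold higher in CT2A. Hoxc11, a homeobox gene of posterior identity on chromosome 15, was read at 388 to 702 in CT2A and not in GL261, at least 148-fold higher. En1, the homeobox gene engrailed 1 of the midbrain and hindbrain, was read at 190.4 to 239.8 and not in GL261, at least 56.3-fold higher.

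Of the 10 highest genes 8 had no read in GL261. Among these was the kinase gene Camk1g, for which CT2A lay at least 141-fold above GL261, together with Tram1l1 and Pbp2 (at least 65.5-fold and 47.2-fold). Mme, which encodes the membrane peptidase neprilysin, had normalized counts of 2844, 3616, 12422, 6410.3 and 3389 in CT2A and of 6.2, 7.2 and 10.1 in GL261. Its log2 fold change was 9.50 ± 0.79 (SE), and libraries 59 and 60 were the highest. The Eph receptor gene Ephb6 belonged to the same 10, with 3619 reads in CT2A against 2 in GL261, a ratio of the pooled CPM of 789 (95% interval of counting error 218 to 6520).

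The opposite end held genes of the oligodendrocyte lineage and of cartilage. Gpr17, a receptor of differentiating oligodendrocyte progenitors, had normalized counts of 3604, 3933 and 5432 in GL261 and of 0 or 0.8 in every CT2A library, that is 10479 reads against 2 (ratio of the pooled CPM 12012, interval 3325 to 99201). Sox10, the master regulator of the oligodendrocyte lineage, was read at 5924, 6672 and 7307 in GL261 and at no more than 1.5 in CT2A (log2 fold change -12.67 ± 0.30). No CT2A library came near a GL261 library in either gene.

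Col9a1 and Col9a2, which encode chains of the cartilage collagen IX, had log2 fold changes of -12.87 ± 0.41 and -12.70 ± 0.37. Cnmd, which encodes the cartilage protein chondromodulin, was read 9821 times in GL261 and 2 times in CT2A. Moxd1, a monooxygenase-like gene, had the largest counts of these genes, 19121, 20352 and 20055 in GL261 against 0 to 4.6 in CT2A (-12.78 ± 0.37). The adhesion gene Chl1 (-12.72 ± 0.34) and Neto1 (6020 reads against 2) belonged to the same end, and the carbonic anhydrase gene Car6 had no read in CT2A and was at least 236-fold lower there. Rps3a2 was also without a read in CT2A, but it is a near-identical copy of Rps3a1 and reads of the copies may have been split, so its value is uncertain. Without CT2A library 60 the log2 fold change of Chl1 was -13.33.

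**Figure D2:**
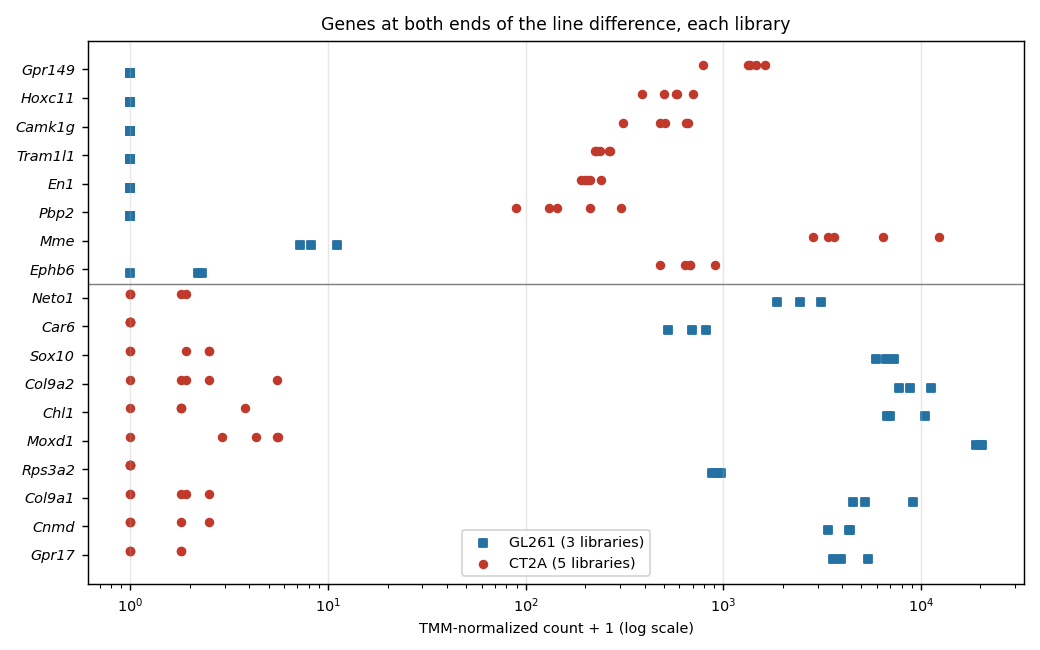
TMM-normalized count plus 1 (log axis) of 8 of the 10 genes highest in CT2A and of the 10 highest in GL261, each point a library. The genes were chosen among those without overlap between the lines, and 6 of the upper 8 lie at a count of 0 in all 3 GL261 libraries.

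Most lineage genes of the oligodendrocyte progenitor were lower in CT2A. Of 13 tested genes 9 were lower, 1 was higher and 3 did not pass (Cspg4 -0.52, Vcan 0.17, Nkx2-2 0.38, of which Cspg4 passed as lower without CT2A library 58), with a median log2 fold change of -7.10 (0.03 over all genes tested). Olig2 was read 3352 times in GL261 and 2 times in CT2A, both reads in library 60. Olig1 (-9.68), Ptprz1 (-8.79), Sox8 (-6.06) and the proteoglycan gene Bcan (-7.10 ± 0.49) followed. Pdgfra, the receptor for platelet-derived growth factor that drives progenitor division, had normalized counts of 1656, 2521, 2584, 2815 and 2544 in CT2A against 474, 733 and 1136 in GL261. It was higher in every CT2A library than in any GL261 library (log2 fold change 1.63 ± 0.28, adjusted p = 6.2e-04, edgeR). Of the same 13 genes 10 were lower and 1 was higher in adherent-derived tumors, with a median of -4.74 (26.8% and 24.0% of all genes in that comparison). Without CT2A library 60 those of Olig1 and Ptprz1 in the neurosphere-derived comparison were -10.55 and -9.98.

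Genes of neural stem cells and of astrocytes were also mostly lower. Of 15 tested stem and progenitor genes 9 were lower and 2 were higher. The lower ones included Sox2 by a small step (-0.68), Sox11 (-4.89), Prom1 (-2.86), the fatty acid-binding protein gene Fabp7 (-3.55 ± 0.50) and the NOTCH ligand gene Dll3 (-5.32 ± 0.41). Hes1, a transcriptional target of NOTCH, was read at 844, 901, 535, 954 and 942 in CT2A and at 150, 137 and 160 in GL261 (2.48 ± 0.21), and Sox4 was the other higher gene (1.12 ± 0.13). Without CT2A library 59 the number of higher genes was 5, and without GL261 library 90 that of lower genes was 4. Library 59 was the lowest CT2A library for Hes1 and still above every GL261 library.

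Of 12 astrocyte genes 9 were lower and 1 was higher (2 without CT2A library 59). Sox9, a glial and cartilage transcription factor, was that one, with 1237, 964, 812, 1443 and 1262 in CT2A and at most 34.6 in GL261 (5.41 ± 0.28). S100b (-6.31 ± 0.41) and the glutamate transporter gene Slc1a3 (-3.97 ± 0.40) were the lower genes of smallest p. In the adherent-derived tumors the 2 genes had log2 fold changes of -4.10 and -0.16, and the difference between the comparisons passed for both (adjusted p = 0.016 and 0.010, edgeR).

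Homeobox genes of body position were higher in CT2A. Of 39 Hox genes 21 had enough reads to be tested, and 15 of these were higher and 2 lower, with a median log2 fold change of 3.46. The higher genes came from 2 of the 4 clusters, Hoxa and Hoxc, and the tested Hoxd genes Hoxd4 and Hoxd8 did not pass. Hoxa9 was read at 186, 195, 258, 245 and 186 in CT2A and at 2.5, 4.8 and 7.6 in GL261 (5.40 ± 0.33). Hoxc9 (5.08 ± 0.38) and Hoxa7 (3.82 ± 0.25) were similar, and Hoxb4 was lower (-1.80 ± 0.56). Hoxb4 fell under the minimum count without any single GL261 library or without CT2A library 59. In adherent-derived tumors 13 of 20 tested Hox genes were higher and 2 were lower.

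Other regional homeobox genes followed the same direction in 12 of 17 tested, and 1 was lower (2 without libraries 59 and 60). Lbx1, of the dorsal spinal cord and of migrating muscle precursors, was read 1863 times in CT2A and in a single GL261 read. Emx2, of the cerebral cortex, was read at 208 to 309 in CT2A and at 1.2 to 3.8 in GL261 (6.73 ± 0.33). Shox2, a limb and skeletal gene, had a log2 fold change of 4.70 ± 0.24. Pax3 was the lower gene, with 97 reads in GL261 against 3 in CT2A (ratio of the pooled CPM 74.1, interval 24.6 to 366).

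**Figure D3:**
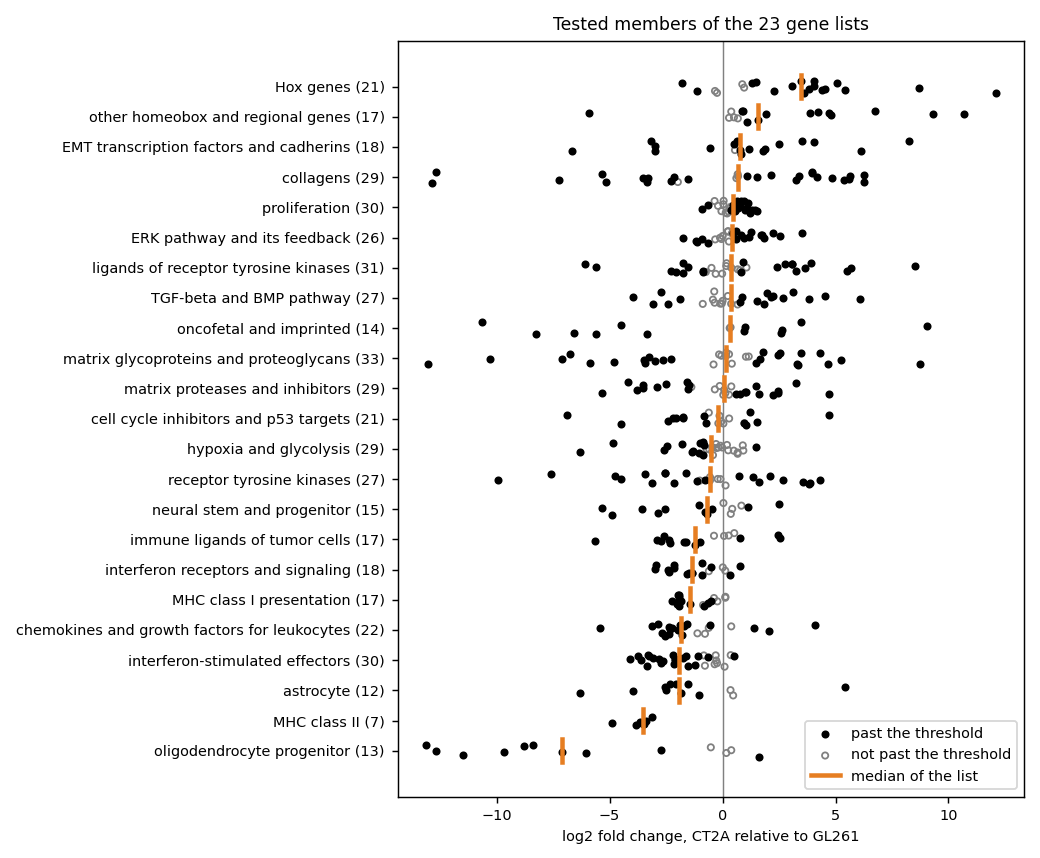
Log2 fold change of CT2A relative to GL261 for every tested member of the 23 gene lists (number tested in parentheses), ordered by list median. Filled points passed an adjusted p of 0.05, open points did not, and orange bars are medians, from -7.10 for oligodendrocyte progenitor genes to 3.46 for Hox genes. Vertical scatter within a row has no meaning.

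Transcription factors of the mesenchymal transition were higher in CT2A and epithelial genes were lower. Of 18 tested genes 12 were higher and 5 lower, and Foxc2 did not pass. Twist1 was read at 702, 679, 552, 802 and 925 in CT2A and at 36.2, 39.4 and 56.8 in GL261 (4.05 ± 0.24, adjusted p = 6.8e-07, edgeR). Its paralog Twist2 had 912 reads in CT2A and 1 in GL261. Snai2 (6.12), Runx2 (2.49), Runx1 (1.89) and Prrx1 (1.19) were higher too, whereas Zeb1 rose by only 0.49 and Zeb2 was lower (-0.57).

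Cadherins split. Cdh2, the N-cadherin of neural and mesenchymal cells, was read at 3508, 3622, 2948, 3305 and 3539 in CT2A and at 1038, 1012 and 883 in GL261 (1.79 ± 0.13), and Cdh13 was higher as well (3.52 ± 0.28). The epithelial genes Cdh1 (-3.19 ± 0.52), Epcam (-6.66 ± 0.47) and Grhl2 (-3.01 ± 0.42) were lower. The mesenchymal cadherin gene Cdh11 was read at 13.7, 19.1 and 125 in GL261 and at 2.8 to 11.9 in CT2A (-2.99), and it fell under the minimum count without GL261 library 91. Without CT2A library 59 the log2 fold change of Cdh1 was -3.80.

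Collagens divided by type. Of 29 tested genes 14 were higher and 11 lower. Basement membrane collagen IV rose in both of its main chains, with Col4a1 read at 33093, 42268, 27192, 32430.0 and 40447 in CT2A and at 762, 510 and 1279 in GL261 (5.37 ± 0.35). Col4a2, which is transcribed from the opposite strand of the same locus, had a log2 fold change of 4.84 ± 0.30. The fibrillar chains of collagens I, III and V were higher too (Col1a1 3.40, Col3a1 2.13, Col5a1 6.27 ± 0.35, Col5a2 5.66), as were the 3 chains of collagen VI and the anchoring fibril gene Col7a1 (5.58 ± 0.38). Col1a2, the partner of Col1a1, was read at 70.0, 76.4 and 717 in GL261 and at 17.5 to 119 in CT2A. It did not pass (-1.98), passed under 3 of 15 alternatives and stood at -0.01 without GL261 library 91. That library was the highest of its line for Col1a1 and Col5a2 too, which had log2 fold changes of 4.96 and 6.99 without it.

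Collagens IX and XI of cartilage ran the other way. Beside the collagen IX genes, Col11a1 was read at 9446, 13882 and 16700.0 in GL261 and at 1082, 1089, 952, 1042 and 1562 in CT2A (-3.54 ± 0.22), and Col11a2 was lower as well (-5.34 ± 0.32). Col10a1, a collagen of hypertrophic cartilage, was higher in CT2A, at 327, 415, 89.0, 107 and 228 against 0, 0 and 8.8 in GL261 (6.27 ± 0.99), so that no GL261 read was left without library 91. Acan, which encodes the cartilage proteoglycan aggrecan, had 935 reads in GL261 and 1 in CT2A. Sox9, which in cartilage activates several of these genes, was higher in CT2A. In adherent-derived tumors 16 collagen genes were higher and 10 lower of 28, and 1 of 29 passed the test of a difference between the cohorts (6.67% of all genes).

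Matrix glycoproteins and proteoglycans were divided evenly, with 12 higher and 12 lower of 33. Ccn4, a WNT-induced matricellular gene, was read at 2703, 3258, 1022, 2792 and 3744 in CT2A and at 2.5, 1.2 and 15.2 in GL261 (8.74 ± 0.72). Bgn, which encodes the proteoglycan biglycan (4.68 ± 0.42), the thrombospondin gene Thbs2 (4.30 ± 0.33) and Postn, the gene of periostin (3.36 ± 0.28), were higher. The perineuronal matrix genes Tnr (-4.82 ± 0.29), Bcan and Ncan (-3.45) and the elastic fibre genes Eln (-3.50) and Fbn2 (-5.86) were lower, whereas the fibrillin gene Fbn1 was higher (1.77 ± 0.18). Fn1 and Sparc, 2 widely used mesenchymal genes, did not pass (-0.16 and -0.05). Without GL261 library 91 the log2 fold changes of Ccn4 and Bgn were 10.43 and 5.28, that of Fbn2 was -7.06 without CT2A library 57, and that of Ncan was -5.22 without CT2A library 60.

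Matrix proteases and their inhibitors showed 11 higher and 10 lower of 29. Mmp11, stromelysin 3, was read at 718, 895, 855, 721 and 873 in CT2A and at 27.5, 31.0 and 34.1 in GL261 (4.71 ± 0.17). The membrane-bound Mmp17 (-5.33 ± 0.28), the collagenase gene Mmp13 (-4.17 ± 0.46) and the inhibitor gene Timp1 (-1.52 ± 0.14) were lower. Mmp14, the main membrane-type collagenase, was higher by 0.59 ± 0.19 (adjusted p = 0.023, edgeR), with overlapping counts of 4345 to 5702 in CT2A and 2562 to 4677 in GL261, and it no longer passed without GL261 library 90 or 91 (adjusted p = 0.0934 and 0.0979).

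Genes of the TGF-beta family went both ways. Of 27 tested pathway genes 12 were higher and 5 lower (8 lower without libraries 59 and 60). Tgfb2 was read at 1463, 1989, 1187, 1285 and 2167 in CT2A and at 166, 215 and 182 in GL261 (3.11 ± 0.25). Tgfb3 (2.67 ± 0.23), the activin subunit gene Inhba (6.08), its antagonist gene Fst (4.54) and Fstl1 (3.84 ± 0.18) were higher, and Tgfb1 did not pass (-0.35). The ligand genes Bmp2 (-3.96 ± 0.44) and Gdf15 (-3.08 ± 0.67) were lower. Of the transcriptional targets of BMP signals Id1 and Id2 were lower (-1.88 ± 0.29 and -2.42) and Id3 did not pass (0.23), and Smad7, an inhibitor induced by TGF-beta, was higher (1.52 ± 0.21). Tgfbi, a matrix gene named for its induction by TGF-beta, was read at 19708, 15596 and 10503 in GL261 and at 1885, 1487, 4916, 1562 and 1702 in CT2A (-2.72 ± 0.41). Library 59, the CT2A library with the most macrophage marker reads, was the highest of its line for Tgfbi, which macrophages also express. Their part in this difference was not tested. The log2 fold change of Fst was 5.35 without GL261 library 91 and that of Gdf15 was -4.23 without CT2A library 60, and Id3 passed as higher without library 59 (0.35).

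Receptor tyrosine kinases went both ways. Of 27 tested 9 were higher and 12 lower in CT2A. Fgfr1 was read at 6206, 7111, 9089.6, 6774 and 6799.7 in CT2A and at 726, 597 and 510.1 in GL261 (3.56 ± 0.19), and Fgfr2 and Fgfr3 were lower (-4.48 and -4.77 ± 0.43). Within the ERBB family Egfr was higher (3.85 ± 0.40), at 176 to 379 against 11.9 to 31.6, and Erbb3 was lower (-9.92 ± 0.31), at 1.5 to 7.6 against 3499 to 5736, and Erbb2 did not pass (-0.56), but did without library 59 (-0.39, adjusted p = 0.0196, edgeR). Kit, the stem cell factor receptor gene, was lower (-7.58 ± 0.41), and the ephrin receptor gene Epha2 (3.83 ± 0.31) and Pdgfrb (4.33 ± 0.48) were higher. Of the receptor genes lower in CT2A, Csf1r, Mertk and Axl are also genes of macrophages and Kdr, Tek and Flt4 of endothelium. Csf1r is itself in the macrophage marker list, and Kdr and Tek are in the endothelial one. Both marker sums were higher in GL261, and the part of host cells in these values was not tested. Mertk lost the call under 6 of 15 alternatives and had a log2 fold change of -0.50 without GL261 library 89 against -1.14 with it. Those of Egfr and Fgfr2 were 4.45 without GL261 library 91 and -5.69 without CT2A library 60.

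The ligands of these receptors were likewise unequal, with 12 higher and 9 lower of 31. The EGFR ligand gene Btc was read 271 times in CT2A and 2 times in GL261 (ratio of the pooled CPM 59.1, interval 16.2 to 491), Areg was higher (3.65), and Ereg was read in CT2A only. The EGFR ligand gene Tgfa was read at 1143, 1355 and 1376 in GL261 and at 20.4, 4.6, 1.5, 57.4 and 13.4 in CT2A (-6.07 ± 0.68). Pdgfc, which activates PDGFRA, was read at 1284, 1459.9, 1786, 1295 and 1477 in CT2A and at 196, 139.7 and 177 in GL261 (3.10 ± 0.18). The lymphatic growth factor genes Vegfd (5.49 ± 0.32) and Vegfc (3.25 ± 0.23) were higher and Vegfa was lower (-0.86). Igf2, an imprinted fetal growth factor gene, was read at 817, 836 and 972 in GL261 and at 14.5 to 20.8 in CT2A (-5.59 ± 0.16). Without GL261 library 91 the log2 fold change of Areg was 5.0, and without CT2A library 60 that of Tgfa was -7.08.

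Genes of the ERK pathway and its feedback were higher in 13 of 26 and lower in 5. Dusp4, a phosphatase induced by ERK, was read at 1542, 1479.9, 725, 1086 and 1342 in CT2A and at 139, 90.8 and 89.6 in GL261 (3.54 ± 0.30). Etv4 was higher (2.21 ± 0.14) and its paralog Etv5 lower (-1.11 ± 0.14), and Spry4 was higher (1.69) and its paralog Spry2 lower (-0.91 ± 0.14). Dusp6 and Spry1 did not pass (-0.12 and 0.41), and Spry1 did without library 59 (0.55, adjusted p = 0.0047, edgeR). Myc was lower (-1.20 ± 0.22).

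Proliferation genes were higher in CT2A by small steps. Of 30 tested 17 were higher and 2 lower, with a median log2 fold change of 0.45. Kif11, a mitotic kinesin gene, was read at 1454, 1400.5, 1588, 1367 and 1148 in CT2A and at 415, 469 and 552 in GL261 (1.54 ± 0.15). E2f1 (1.21 ± 0.12) and the cyclin gene Ccna2 (1.09 ± 0.14) were higher, and Mki67 did not pass (0.20). Cdc20 (-0.92 ± 0.14) and Ccnb2 (-0.66) were the lower genes, and Ccnb2 no longer passed without GL261 library 90 (adjusted p = 0.0574, edgeR). Markers of several host cell types, macrophages and endothelial cells among them, were higher in GL261, whereas those of others did not pass. The part of host cells in these steps was not tested. In adherent-derived tumors 10 of 30 were higher and 6 were lower (24.0% and 26.8% of all genes in that comparison). No macrophage marker passed there, while 7 of 10 endothelial markers were lower in CT2A.

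Inhibitors of the cell cycle and targets of p53 were lower in 9 of 21 and higher in 5. The adjacent genes Cdkn2b, read at 122, 136 and 106 in GL261 and at no more than 1.9 in CT2A (-6.90 ± 0.51), and Cdkn2a (-2.06) were both lower, as were the p53 target gene Cdkn1a (-2.20) and Ccnd3 (-2.43 ± 0.16). Cdkn2c, a relative of Cdkn2b, was higher (1.54 ± 0.16), and the p53 targets Eda2r (4.71 ± 0.65), Zmat3 (1.21) and Phlda3 (1.04) were higher together with Trp53 itself (0.93). The log2 fold change of Eda2r was 6.22 without GL261 library 91.

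Genes of hypoxia and glycolysis were lower in 12 of 29 and higher in 1. Slc16a3, the lactate exporter gene, was read at 2194, 1999 and 1965 in GL261 and at 37.0 to 104 in CT2A (-4.86 ± 0.26). Adm, which encodes the hypoxia-induced peptide adrenomedullin (-6.30 ± 0.43), the glucose transporter gene Slc2a1 (-2.58 ± 0.37) and the glycolytic regulator gene Pfkfb3 (-2.45 ± 0.28) were lower. Most enzymes of glycolysis did not pass (Gapdh -0.43, Ldha -0.18, Pkm -0.09). GL261 library 89 was the highest of its line for Adm, Slc2a1 and Pfkfb3 (783, 12229 and 2593, against at most 456, 6580.1 and 1495 in libraries 90 and 91). Ankrd37, the higher gene, was higher by 1.5 ± 0.56 with overlapping counts and lost the call under 5 of 15 alternatives, whereas 2 genes of the list were higher without library 59 and 3 without libraries 59 and 60.

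Oncofetal and imprinted genes went both ways, 6 higher and 6 lower of 14. Lin28b, the fetal RNA-binding protein gene that blocks the let-7 microRNAs, was read at 61.3, 59.4, 94.3, 53.6 and 64.0 in CT2A and not in GL261, at least 17.9-fold higher. The imprinted genes Peg10 (3.47 ± 0.35) and Mest (2.62 ± 0.28) were higher. The imprinted genes Plagl1 (-6.59 ± 0.18), at 4838, 4189 and 4041 against 30.8 to 53.6, and Peg3 (-8.28 ± 0.50) were lower together with Igf2. Dppa4, an early embryo gene, was read in GL261 only, at least 70.4-fold lower in CT2A. The log2 fold change of Peg3 was -8.95 without CT2A library 58.

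Genes of MHC class I presentation were lower in CT2A, by about 2 on the log2 scale for those that make and carry the peptides and by under 0.7 for the presenting molecule. Of 17 tested 12 were lower and 5 did not pass, with a median log2 fold change of -1.46. The 3 immunoproteasome genes Psmb8 (-1.92 ± 0.24), Psmb9 (-2.23 ± 0.23) and Psmb10 (-1.97 ± 0.17) and the 2 proteasome activator genes Psme1 (-1.92 ± 0.10) and Psme2 (-1.93 ± 0.14) were lower by nearly equal amounts. Psmb9 was read at 1176, 1388 and 1215 in GL261 and at 173, 321, 203, 384 and 266 in CT2A. Psme1 was read at 3095, 3377 and 2780.4 in GL261 and at 844, 757, 839.7, 829 and 808 in CT2A. The lines did not overlap in either gene, and Psme1 varied least among the CT2A libraries.

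The peptide transporter genes Tap1 (-1.82 ± 0.26) and Tap2 (-1.97 ± 0.23), the tapasin gene Tapbp (-1.46 ± 0.14), its relative Tapbpl (-2.0 ± 0.27) and the peptide-trimming gene Erap1 (-0.82 ± 0.13) were lower as well. Tap1 was read at 4629, 5023 and 3998 in GL261 and at 649.9, 1527, 1335, 1761 and 1148 in CT2A, and library 57 was the lowest. B2m, the light chain of the class I molecule, was read at 32088, 31020.0 and 23140.0 in GL261 and at 16414, 17560.0, 20214, 18594 and 18157 in CT2A (-0.66 ± 0.15, adjusted p = 0.0029, edgeR). H2-K1, 1 of the 2 classical heavy chains, was lower by 0.52 on the log2 scale with an adjusted p of 0.047 (edgeR) and lost the call under 9 of 15 alternatives. H2-D1, the other, did not pass (-0.38 ± 0.20, adjusted p = 0.12, edgeR), but did without library 59 (-0.50, adjusted p = 0.0254). Reads of these near-identical genes can be split between them, so both values are uncertain. The general chaperone genes Calr, Canx and Pdia3 (-0.23, 0.12 and 0.12) and the class I transactivator gene Nlrc5 (-0.86 ± 0.36, adjusted p = 0.066) did not pass, and Nlrc5 passed under 5 of 15 alternatives.

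In adherent-derived tumors 12 of 17 were likewise lower, with a median of -1.66. There Nlrc5 was lower (-1.24) and H2-K1 did not pass (-0.65, adjusted p just above the threshold). The test of a difference between the cohorts passed for 0 of 17, against 6.67% of all genes. MHC class I genes are expressed by nearly all nucleated cells, macrophages among them. The macrophage markers were higher in GL261 in the neurosphere-derived tumors, whereas none of them passed in the adherent-derived ones. In the latter 7 of 10 endothelial markers were lower in CT2A. The part of host cells in the class I difference was not tested.

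**Figure D4:**
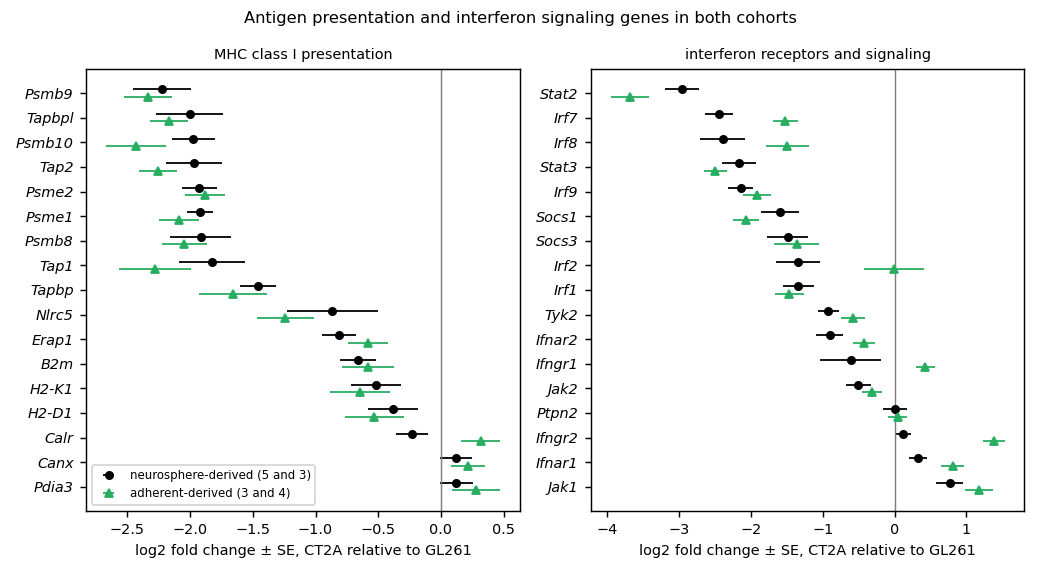
Log2 fold change of CT2A relative to GL261 with its SE for the 17 genes of MHC class I presentation and 17 of the 18 of interferon signaling, in neurosphere-derived (circles, 5 and 3 libraries) and adherent-derived tumors (triangles, 3 and 4). Psmb9 was lower by 2.23 and 2.34 in the 2 cohorts, and Ifngr2 stood at 0.12 and 1.38.

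MHC class II genes were lower in 7 of 7, with a median log2 fold change of -3.52. H2-Eb1 was read at 18629, 16461 and 11430.0 in GL261 and at 426, 981, 1996, 1088 and 949 in CT2A (-3.83 ± 0.41), with library 59 the highest of its line. Ciita, the transactivator of the class II genes, was read at 1075, 1490.4 and 1336 in GL261 and at 20.4, 67.9, 11.4, 42.3 and 80.3 in CT2A (-4.92 ± 0.49), with library 59 the lowest. Class II is typical of macrophages and dendritic cells. Macrophage markers moved in the same direction. Dendritic cell markers summed to between 14.9 and 19.2 CPM in CT2A and to between 8.8 and 12 CPM in GL261. In adherent-derived tumors the same 7 genes were lower (median -2.26). No macrophage marker passed there, while 7 of 10 endothelial markers were lower in CT2A. The part of host cells in the class II difference was not tested.

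Genes of interferon signaling were mostly lower. Of 18 genes 13 were lower and 2 were higher, with a median log2 fold change of -1.34. The genes of the interferon-gamma receptor, Ifngr1 and Ifngr2, did not pass (-0.61 ± 0.43 and 0.12 ± 0.11). Ifngr1 was read at 495 to 545 in 4 CT2A libraries and at 1579 in library 59, and without that library it was lower (-1.09, adjusted p = 0.0024, edgeR). Ifnar1 was higher by 0.32 ± 0.12 and lost the call under 11 of 15 alternatives, and Ifnar2 was lower (-0.91 ± 0.18). Of the receptor kinases Jak1 was higher (0.77 ± 0.19), and Tyk2 (-0.92 ± 0.15) and Jak2 (-0.50 ± 0.18, lost under 6 of 15 alternatives) were lower.

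Transcription factors of the pathway showed larger steps. Stat2, which carries the signal of type I interferons, was read at 2297, 3098 and 2664 in GL261 and at 206, 292, 481, 403 and 342 in CT2A (-2.96 ± 0.24), and Irf9 was lower by 2.14 ± 0.18 on the log2 scale. The lines did not overlap in Stat2. Stat3 (-2.16 ± 0.24), Irf1 (-1.34 ± 0.22), Irf2 (-1.34 ± 0.30), Irf7 (-2.44 ± 0.20), Irf8 (-2.39 ± 0.32) and the feedback inhibitor genes Socs1 (-1.59 ± 0.26) and Socs3 (-1.49 ± 0.29) were lower, and the phosphatase gene Ptpn2 did not pass (0.01).

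Effector genes induced by interferon were lower in 21 of 30 and higher in 1, with a median log2 fold change of -1.92. Oas1a, a sensor of double-stranded RNA, was read at 562, 641 and 558 in GL261 and at 56.4, 53.2, 46.4, 79.9 and 77.4 in CT2A (-3.24 ± 0.20). Bst2, which encodes the virus-tethering protein tetherin, was read at 2954, 3478 and 2424 in GL261 and at 584, 619, 590.2, 687 and 733 in CT2A (-2.20 ± 0.14). The GTPase genes Igtp (-3.76) and Irgm2 (-3.62), Oas3 (-4.11 ± 0.21) and the protease gene Usp18 (-2.81 ± 0.18) were lower as well. The list was not uniform, since Isg15 (-0.31), Ifit1 (0.36), Ifit2 (-0.78), Ifitm1 (-0.28), Ifih1 (-0.35), Rsad2 (-0.83), Mx2 (-0.24) and Oasl1 (0.09) did not pass. Ifitm2 was higher (0.50 ± 0.16) and lost the call without GL261 library 90 or 91.

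Library 59 was the highest CT2A library for 6 of the 8 effector genes that did not pass. Rsad2, which encodes the antiviral protein viperin, was read at 347, 202, 1710.5, 355 and 359 in CT2A libraries 57 to 61 and at 1402, 1043 and 739 in GL261. Ifit1 was read at 1033, 735, 2795, 964 and 1248 in CT2A and at 1183, 1155 and 832 in GL261. Ifit2, Mx2 and Oasl1 showed the same form, and Isg15 was read at 774 in library 59 against 376 to 708 in the other CT2A libraries. Without library 59 Rsad2 (-1.75), Ifit2 (-1.14) and Mx2 (-0.75) were lower in CT2A, and 24 of the 30 genes passed as lower, whereas Ifit1 (-0.09) and Oasl1 (-0.47) did not pass. The same library had the most macrophage marker reads of its line.

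The promoters of these genes were searched for the letters that interferon factors bind. The RefSeq promoter table (GRCm38.p6, 250 bases before to 50 after each start) was searched on either strand for the core of the interferon-stimulated response element (ISRE) bound by IRF factors, that is GAAA, any 2 bases and GAAA, and for TTCNNNGAA, the gamma-activated site of STAT factors. The 2 motifs can overlap. The ISRE core was found for 18 of 23 interferon-stimulated effector genes in the table, for 3 of 14 MHC class I genes (B2m, Erap1 and Psme1) and for 3.99% of all 27025 genes in the table. TTCNNNGAA was found for 8 of 23, for 1 of 14 and for 9.55%. Among the 18 effector genes with the ISRE core were Ifih1, Ifit1, Isg15 and Rsad2, which did not pass, and Ifitm2, which was higher in CT2A. A match is a description of letters, and no match says only that these letters are not in the window.

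The promoters of 4 genes are shown because they pair 2 effector genes that were lower in CT2A with both motifs, a class I gene with the first motif and a transporter gene with neither. Each is the 250 bases before the start, 5′ to 3′ on the strand of the gene, with motif letters in capitals. In Bst2 the TTCNNNGAA match overlaps the first of 2 overlapping ISRE core matches, so that they form 1 run of capitals.
Oas1a (minus strand, chr5:120907526-120907775): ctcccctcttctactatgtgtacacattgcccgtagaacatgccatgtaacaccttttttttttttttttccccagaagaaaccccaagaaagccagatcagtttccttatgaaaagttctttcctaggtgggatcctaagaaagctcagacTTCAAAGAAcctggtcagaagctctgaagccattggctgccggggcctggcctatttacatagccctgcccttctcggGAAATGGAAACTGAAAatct
Bst2 (minus strand, chr8:71537473-71537722): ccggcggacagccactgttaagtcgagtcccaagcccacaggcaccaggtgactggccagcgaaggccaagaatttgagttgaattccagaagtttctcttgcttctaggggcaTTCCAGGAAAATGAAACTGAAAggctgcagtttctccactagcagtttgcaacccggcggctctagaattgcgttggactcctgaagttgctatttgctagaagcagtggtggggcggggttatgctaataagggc
B2m (plus strand, chr2:122147437-122147686): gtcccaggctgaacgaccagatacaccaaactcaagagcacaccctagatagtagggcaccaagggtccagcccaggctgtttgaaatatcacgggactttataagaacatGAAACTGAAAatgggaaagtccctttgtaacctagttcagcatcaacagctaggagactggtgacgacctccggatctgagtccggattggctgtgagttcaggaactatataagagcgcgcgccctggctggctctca
Tap1 (plus strand, chr17:34187306-34187555): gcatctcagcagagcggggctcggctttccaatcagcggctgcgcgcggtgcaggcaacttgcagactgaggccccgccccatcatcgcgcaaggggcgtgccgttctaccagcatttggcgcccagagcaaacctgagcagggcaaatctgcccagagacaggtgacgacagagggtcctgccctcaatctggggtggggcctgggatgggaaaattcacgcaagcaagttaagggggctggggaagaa
Psmb9 starts beside Tap1 on the opposite strand, and the 300-base windows of the 2 genes share 275 bases. B2m, with the first motif, was lower by 0.66 on the log2 scale, and Tap1, with neither, by 1.82.

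Ligands by which tumor cells meet immune cells were lower in 10 of 17 and higher in 3. Cd274, the gene of the checkpoint ligand PD-L1, was lower (-2.75), as were Pdcd1lg2, the gene of PD-L2 (-5.66 ± 0.55), the galectin gene Lgals9 (-2.36 ± 0.14), the adhesion gene Icam1 (-2.90 ± 0.34) and the antiphagocytic gene Cd47 (-1.23). The ectonucleotidase genes went apart. Entpd1, the gene of CD39, was read at 1771, 1336 and 1373 in GL261 and at 164 to 364 in CT2A (-2.61 ± 0.25), and Nt5e, the gene of CD73, at 65.0 to 104 in GL261 and at 348 to 605 in CT2A (2.47 ± 0.23). The NKG2D ligand gene Ulbp1 was read at 2996, 2874, 2193, 2199.5 and 2379 in CT2A and at 321, 453 and 539 in GL261 (2.53 ± 0.20), and Cd276 was higher by a small step (0.79 ± 0.20). The log2 fold change of Pdcd1lg2 was -4.93 without GL261 library 91. In adherent-derived tumors 4 of 16 were higher and 6 were lower (24.0% and 26.8% of all genes there), with a median of -0.016. Of the 17 genes 4 passed the test of a difference between the cohorts, all lower in the neurosphere-derived comparison (5.70% of all genes). Macrophage markers were higher in GL261 here, and the part of host cells in these values was not tested.

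Chemokines and growth factors for leukocytes were lower in 15 of 22 and higher in 3. Ccl8 was read at 1063, 1321 and 2388 in GL261 and at 20.4, 23.1, 57.8, 50.8 and 32.7 in CT2A (-5.42 ± 0.38). Ccl7 (-2.35 ± 0.28), Cxcl16 (-2.66 ± 0.38) and Ccl5 (-2.38 ± 0.36) were lower too, with library 59 the highest CT2A library for Cxcl16 (968, against 308 to 427). Cx3cl1, the gene of fractalkine, was read at 1134, 1437, 229, 885 and 1095 in CT2A and at 43.7, 56.1 and 66.9 in GL261 (4.10 ± 0.58). The cytokine genes Lif (2.07 ± 0.49) and Il34 (1.37 ± 0.39) were also higher, and both lost the call when the effective gene length entered the model (adjusted p = 0.0722 and 0.121). Most of these chemokines are made by macrophages as well. In adherent-derived tumors 3 of 20 were higher and 2 were lower (24.0% and 26.8% of all genes there). No macrophage marker passed in those tumors, while 7 of 10 endothelial markers were lower in CT2A. The part of host cells in the chemokine difference was not tested. Of 21 tested genes of this list 7 passed the test of a difference between the cohorts, all 7 lower in the neurosphere-derived comparison (5.70% of all genes). Without GL261 library 91 the log2 fold change of Lif was 2.72.

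The difference between the lines was shared by neighbouring genes. The median log2 fold change of the 482 tested genes of chromosome 14 lay 0.842 below that of all autosomal genes, and 296 of them were lower (61.4%) against 40 higher (8.30%). Chromosome 3 lay 0.815 above it, with 414 of 668 genes higher, and chromosome 19 lay 0.570 above it. Chromosomes 12 (0.348), 15 (-0.364), 10 (-0.359) and X (-0.263) were shifted less, and these medians kept their sign in each of the 5 CT2A libraries taken alone. No DNA measurement was used here, and copy number was not tested.

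Several immune genes lie in windows of 10 Mb that were lower as a whole. Psme1, Psme2 and Irf9 lie within 1 window of chromosome 14 (50 to 60 Mb), whose 112 tested genes had a median 1.06 below the autosomes. Stat2 lies in the window of chromosome 10 from 120 to 130 Mb, whose 97 genes had a median 0.969 below. All 4 genes lay below the median of their window. They had already passed as lower, so this is a description only. Tap1, Tap2, Tapbp, Psmb8, Psmb9 and H2-K1 share a window of chromosome 17 (30 to 40 Mb) with a median of -0.266. H2-D1, which did not pass, lies in the same window. Gpr149 and Mme, both among the highest genes in CT2A, lie in 1 window of chromosome 3 (60 to 70 Mb) with a median of 1.06.

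**Figure D5:**
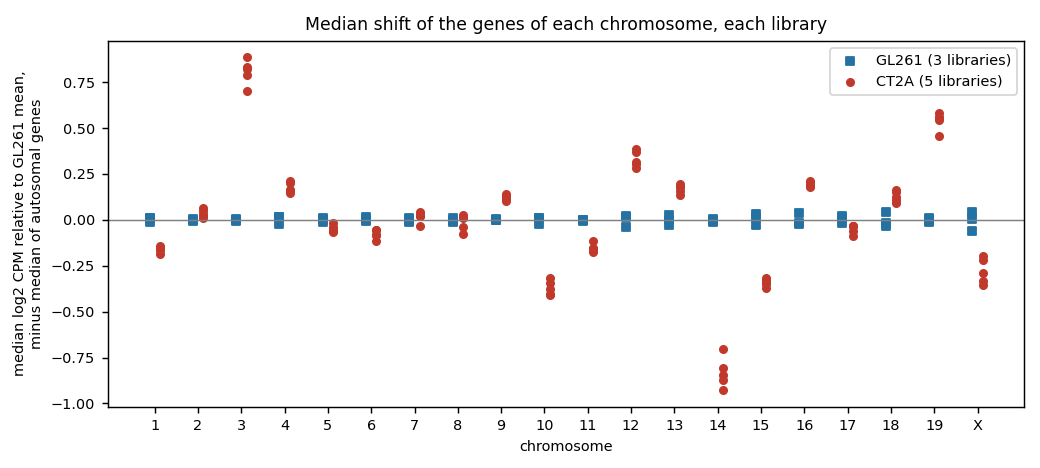
Median shift of the tested genes of each chromosome in each library, as log2 CPM relative to the mean of the GL261 libraries minus the median of autosomal genes (GL261 libraries lie near 0 because they form the reference). The 5 CT2A libraries lie between 0.701 and 0.885 for chromosome 3 and between -0.926 and -0.705 for chromosome 14.

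The line difference was set against that in adherent-derived tumors of the same lines, with 3 CT2A and 4 GL261 libraries that share no sample with the 8. In those, 7000 of 13789 genes passed (50.8%). The difference between the 2 comparisons passed for 922 of 13824 genes (6.67%), of which 134 were higher (0.969%) and 788 lower (5.70%) in the neurosphere-derived comparison. The count was 1541 with DESeq2. It was 261 without GL261 library 89, 457 without GL261 library 90, 613 without CT2A library 57 and 266 without the adherent-derived CT2A library 71, and lay between 623 and 1267 without any other single library.

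The 6 genes of smallest adjusted p were lower in the neurosphere-derived comparison. Pdgfc was higher in CT2A in both, by 3.10 ± 0.18 and 5.91 on the log2 scale (difference -2.86, adjusted p = 3.7e-04, edgeR). Pdpn, the gene of podoplanin, showed the same form (1.71 and 4.63), and so did Mmp14 (0.59 and 2.71). Cux1 and Ets2 did not pass in the neurosphere-derived comparison (-0.05 and 0.13) and were higher in CT2A in the adherent-derived one (1.52 and 1.88). Acp2, a lysosomal phosphatase gene, was lower in the neurosphere-derived comparison (-1.23) and did not pass in the other (0.26).

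Of the macrophage markers 6 of 13 passed this test, all lower. Tgfbi (-2.72 against 0.06 ± 0.44), Mmp13 (-4.17 against 0.06 ± 0.72) and Ccl8 (-5.42 against -0.10 ± 0.71) did not pass in adherent-derived tumors. Nor did Cxcl16 (-2.66 against 0.30 ± 0.50) or Entpd1 (-2.61 against 0.27 ± 0.55). These SEs leave the size of a difference there uncertain, and the part of host cells in these values was not tested. Slc1a3 likewise stood at -3.97 against -0.16 ± 0.56. Egfr was higher in CT2A in both, by 3.85 and 6.39. Ifngr2, which did not pass in the neurosphere-derived comparison, was higher by 1.38 in the adherent-derived one (difference -1.31, adjusted p = 0.0015, edgeR). Of the genes of MHC class I presentation 0 of 17 passed in edgeR, against 6.67% of all genes. Calr alone had an unadjusted p under 0.05, and DESeq2 called 1.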

How the data were processed

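RNA of bead-sorted tumor cells was sequenced as paired reads of 37 bases after 12 cycles of PCR, with a directional kit per the study's methods. The authors quantified transcripts with Salmon against mm10 (GRCm38) at default settings and deposited estimated counts, TPM and effective lengths per transcript. The submitters' processing notes also name STAR 2.7.7a, RSEM 1.3.3 and DESeq2 1.30.1. The deposited RSEM tables served only to pair transcripts with genes, and the libraries of unsorted tumors were not used. No interval of the quantification was used, so intervals and floors given here cover counting error only.

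Estimated counts were summed per gene over 116546 transcripts (116281 paired with a gene by the deposited tables, 85 by the annotation, 180 not paired and holding at most 0.152% of a library) and rounded. The 5 CT2A and 3 GL261 libraries were fitted with the robust quasi-likelihood F test of edgeR 4.0.16 in R 4.3.3 (TMM, mean normalized count above 10, Benjamini-Hochberg 0.05), and the scripts were tested on simulated data. The difference from adherent-derived tumors was fitted as an interaction over 15 libraries. Marker scores are means of log2(CPM + 1) and were compared by exact permutation over the 56 assignments of 8 libraries. The deposited TPM and effective lengths (in bases, unit other than counts) entered alternatives only, as did DESeq2 1.42.0, other size factors, other minimum counts, a size minimum, a joint fit of the 4 sorted groups and the omission of each library.

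The members and gene lists were chosen with earlier results of these data known, so counts over a list are a description. Named genes were the 10 highest and 10 lowest with at least 10 CPM in 1 line and no overlap (predicted genes and pseudogenes left out). Up to 4 higher and 4 lower members of smallest p per list were added, with the members of the lists of MHC class I presentation and interferon signaling. The last were the 6 genes of smallest adjusted p of the interaction with a mean of at least 10 CPM in 1 group. Further members, and the promoter shown for Bst2 and Oas1a, were named after their values were seen. Some genes are not reported here.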

Additional observations from a re-analysis of the deposited data

Results flagged for a closer look

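In the 5 CT2A libraries, 39 of 250 sets of values had 1 library far from the other 4. That is a gap to its neighbour of at least 0.71 of the whole range. Some genes were named after their values were seen, and values of different genes are not independent. The count is therefore a description, and no rate by chance is set beside it. Library 59 was the highest in 17 of these sets and the lowest in 6, and library 60 was the highest in 9. The share of the range taken by the gap is given for each. The 3 GL261 libraries were too few for this check.

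Library 59 was the highest for the interferon receptor genes Ifngr1 (0.954), Ifnar2 (0.842) and Ifngr2 (0.749) and for the interferon-induced genes Rsad2 (0.896), Oasl1 (0.815), Ifit2 (0.804), Mx2 (0.787) and Ifit1 (0.751). Oasl1 had a normalized count of 754 there against 172 to 280 in the other 4 CT2A libraries. It was also the highest for Tgfbi (0.884), Cd47 (0.853), Cxcl16 (0.82), Hoxb4 (0.8), Mertk (0.756), Lin28b (0.745) and Cdh1 (0.742), and for the summed markers of monocytes (0.844) and macrophages (0.717). It was the lowest for Inhba (0.791), Il34 (0.78), Spry2 (0.765), Hes1 (0.736) and Smad7 (0.714) and for the summed astrocyte markers (0.788). Monocyte markers summed to 222 CPM in library 59 against 14.9 to 47.2 CPM in the other 4, and astrocyte markers to 93.2 against 292 to 345 CPM.

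Library 60 was the highest for genes of the oligodendrocyte lineage and of neural matrix, Olig2 and Acan (1 each, since the other 4 libraries were at 0), Ptprz1 (0.757), Ncan (0.736) and Chl1 (0.71), for Gdf15 (0.894), Icam1 (0.853) and Ereg (0.749) and for the summed oligodendrocyte markers (0.918). Library 57 was the lowest for Tapbp (0.881) and Pdgfra (0.746) and the highest for Timp1 (0.836) and Fbn2 (0.719). Library 58 was the highest for Tek (0.748), and library 61 for Col11a1 (0.775) and Vegfc (0.744).

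By the interaction test in edgeR the line difference was unequal in neurosphere-derived and adherent-derived tumors for 34 of 235 genes of the text. Of these, 30 were lower in the neurosphere-derived comparison. Over all genes 6.67% passed and 5.70% were lower. The 235 include the 6 genes chosen by this same test and others named after their values were seen, so the count is a description. The differences of the log2 fold changes, neurosphere-derived minus adherent-derived, were -2.27 for Sox10, -3.14 for Chl1, -3.11 for Neto1, -2.80 for Olig2, -4.09 for Ptprz1, -2.82 for Bcan and 1.36 for Nkx2-2 among the genes furthest apart and those of oligodendrocyte progenitors. Among stem, astrocyte and mesenchymal genes they were 0.80 for Sox4, -2.25 for S100b, -3.86 for Slc1a3 and -0.98 for Runx1. Matrix, protease and TGF-beta genes gave -2.28 for Col5a2, -1.46 for Postn, -4.28 for Mmp13, -2.16 for Mmp14, -2.49 for Tgfb1 and -2.83 for Tgfbi. Growth factor, cell cycle and imprinted genes gave -2.58 for Egfr, -1.85 for Pdgfrb, -2.86 for Pdgfc, 1.06 for Cdc20 and 1.37 for Plagl1. Immune genes gave -1.31 for Ifngr2, -1.56 for Oas1a, -5.02 for Pdcd1lg2, -2.93 for Entpd1, -5.38 for Ccl8, -4.09 for Ccl7, -3.01 for Cxcl16 and -2.50 for Ccl5. The remaining genes were Pdpn (-2.96), Cux1 (-1.62), Ets2 (-1.80) and Acp2 (-1.54).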

How the results depend on the processing

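The count of genes that differed between the lines lay between 6894 (without GL261 library 90) and 9122 (without CT2A libraries 59 and 60, an alternative chosen after seeing the data), with 8364 for DESeq2, and a size minimum of 1 on the log2 scale left 4963, of which 2134 higher. No value changed its direction past the threshold under any alternative run. Of 3531 values of named genes 46 lost the call and 33 gained it, and 41 of 690 list counts moved by over 1.5 times. The difference between the cohorts passed in 1541 genes with DESeq2 (432 higher), and in 261 to 1267 with 1 of the 15 libraries left out (16 to 245 higher, 223 to 1087 lower). With 1 library left out the marker scores of CT2A minus GL261 ranged from -2.902 to -2.355 for macrophages, -1.472 to -1.015 for microglia, -2.617 to -2.123 for monocytes, -0.4621 to -0.2101 for neutrophils, -3.149 to -2.686 for oligodendrocytes, -2.143 to -1.796 for astrocytes and -0.7152 to -0.4904 for neurons, and without some single CT2A libraries the exact permutation p was 0.0571 for macrophages, monocytes, oligodendrocytes (57, 58, 59 or 61) and astrocytes (61), and 0.0286 for microglia and neurons (60) and neutrophils (57). Chromosome 15 ranged from -0.3768 to -0.344 and stood at -0.3309 over genes of at least 10 CPM. No paired analysis was possible because the groups share no sample numbers. The 3 GL261 libraries and the unequal host cell content limit what the difference between the lines shows of the tumor cells alone, and genes under the minimum count were not tested.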

Other observations

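Further genes varied among the libraries of a line, chosen after their values were seen and given in the order of GL261 libraries 89 to 91 and CT2A libraries 57 to 61. Genes known to be induced by glucocorticoids were highest in GL261 library 89 and CT2A library 59. Per1, a clock gene of this kind, had normalized counts of 1808, 982 and 921 in GL261 and of 585, 487, 5398, 803 and 482 in CT2A. Fkbp5, which encodes a cochaperone of the glucocorticoid receptor, was read at 2710.1, 573 and 330 in GL261 and at 978, 990.2, 2272, 1177 and 864 in CT2A. Tsc22d3, the gene of the glucocorticoid-induced leucine zipper, was read at 1663, 846 and 672 in GL261 and at 399, 432, 2008, 505 and 452 in CT2A. In each of the 3 genes library 59 stood above the other 4 CT2A libraries.

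Monocyte and macrophage genes showed the same library as the highest of its line. Mrc1, the mannose receptor gene of tissue macrophages, was read at 9349, 3069 and 5206 in GL261 and at 308, 194, 2321, 456 and 262 in CT2A. Chil3, a chitinase-like gene of alternatively activated macrophages, was read at 412, 380 and 813 in GL261 and at 120.2, 18.5, 1211, 23.5 and 32.7 in CT2A, so that library 59 lay above every GL261 library for Chil3 and below each of them for Mrc1.

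Targets of NOTCH signals differed between the lines and were lowest in library 59 among the CT2A libraries. Hey1 was read at 41.2, 38.2 and 36.6 in GL261 and at 670, 1296, 162, 475 and 574 in CT2A. Nrarp was read at 61.2, 68.1 and 85.9 in GL261 and at 275, 460.4, 35.7, 197 and 329 in CT2A, with library 59 below every GL261 library. Heyl ran the other way, at 96.2, 76.4 and 123 in GL261 and at no more than 4.5 in CT2A.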
